A study of Mus musculus with 6 samples.

Results

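DNA replication machinery is described here through 44 genes, taken by gene symbol from a list of known replication factors and found as 44 of the 23873 rows of an expression table from whole mouse kidney. They cover origin licensing, the replicative helicase and its activators, primase and polymerases, the sliding clamp with its loader, lagging strand processing, single-strand binding, deoxynucleotide supply, and chromatin assembly with maintenance methylation. The rule used no measured value, but the list was chosen with earlier results of these data known. RNA was sequenced from kidneys of mice 8 weeks old in 2 groups of 3 libraries. The first group, here NICD2_Pax8, has the genotype label R26NICD2/+pax8cre. These mice had 1 copy of a Rosa26 allele for NICD2, the Notch2 intracellular domain, which acts in the nucleus without ligand, and a Cre driven from Pax8, a gene of the renal tubule epithelium. The second group, WT, is labelled wild type. The titles of the WT libraries also begin with NICD, and it could not be settled here whether these kidneys carried the allele without the driver. Likewise, the driver is Pax-rtTA in the series title and pax8cre in the sample labels. Nothing in the labels states that each library is a different animal. The p-values therefore reflect the spread among these 6 libraries, part of which may be technical.

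As background, a cell prepares to copy its DNA in G1, when the origin recognition complex, CDC6 and CDT1 load the MCM helicase onto origins. In S phase CDC45 and GINS join the MCM ring to make the active helicase, primase with polymerase alpha starts each strand, and polymerases epsilon and delta extend it, held on DNA by the PCNA clamp that the RFC complex loads. Transcription of many of these genes is controlled by E2F factors and is low in quiescent cells. The adult renal tubule is largely quiescent and re-enters the cell cycle after injury and in cystic disease.

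The values are FPKM, fragments scaled to transcript length and library size, so levels may be compared between genes. The file does not state the depth. From the steps between low values it was estimated at 15700000 to 17800000 fragments in NICD2_Pax8 libraries and at 14600000 to 14900000 in WT libraries. A row named NOTCH2 in capitals, without annotation, had 500.5, 521 and 570.4 FPKM in NICD2_Pax8, against 2.13, 3.75 and 1.27 FPKM in WT. It separated the groups as labelled, but no source used here states that it measures the transgene. Kidney markers were present in each library: the summed level of 10 proximal tubule genes was 153.9 to 4680 FPKM in NICD2_Pax8 and 59691 to 90854 FPKM in WT. Of 5 adrenal cortex genes, Hsd3b1 was the most abundant. WT replicate 1 stood apart, with 3629 FPKM summed over these 5 genes, where the other 5 libraries had 1.39 to 1.63 FPKM. Calls and counts below that change without it are given beside the result. No scaling for library composition is named for the FPKM. Over the 13500 genes tested, the median log2 fold change was 0.32, which became 0.02 after median-of-ratios scaling. Changes should be read against that shift.

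Replication genes rose together in the NICD2_Pax8 kidneys. Of the 44, 43 were tested, and 43 were higher in NICD2_Pax8 by limma with Benjamini-Hochberg adjusted p from 2.21e-05 to 0.0026, while 45.1% of all tested genes were called higher and 16.2% lower. After scaling 43 were still called higher, against a background of 28.7%. The median log2 fold change of the tested replication genes was 2.6, and 31 of them had at least 2, a size reached with a call by 4.66% of all tested genes. In every one of the 43 the lowest NICD2_Pax8 library stood above the highest WT library, which held for 49.9% of all tested genes as deposited and 34.3% after scaling. Ratios of mean FPKM ran from 1.89-fold for Rfc1 to 34.9-fold for Cdc6, with a median of 8.21-fold over the 44, and from 1.48-fold to 27.6-fold with a median of 6.41-fold after scaling. In whole tissue, more cells that express a gene and more RNA per cell cannot be told apart.

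A gene entered the test with at least 1 FPKM in at least 3 libraries. Of the 43, 34 met this in the WT libraries alone, and 9 passed through the group in which they were higher: Orc1, Cdc6, Gins3, Pola1, Pole, Pole2, Chaf1a, Chaf1b and Uhrf1. The one gene below the filter was Cdc45. Tested without any filter, 43 of 44 were called higher, against 32.6% of all 19503 genes with values (43 and 20.7% after scaling). The authors' deposited table gave the same count: 43 of the 44 had a DESeq2 q-value under 0.05 with a higher level in NICD2_Pax8, against 21.3% of all genes there, with the authors' log2 fold changes running from 0.57 to 4.7. Without WT replicate 1 the count called higher was again 43, against 50.4% of all genes tested then.

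**Figure D1:**
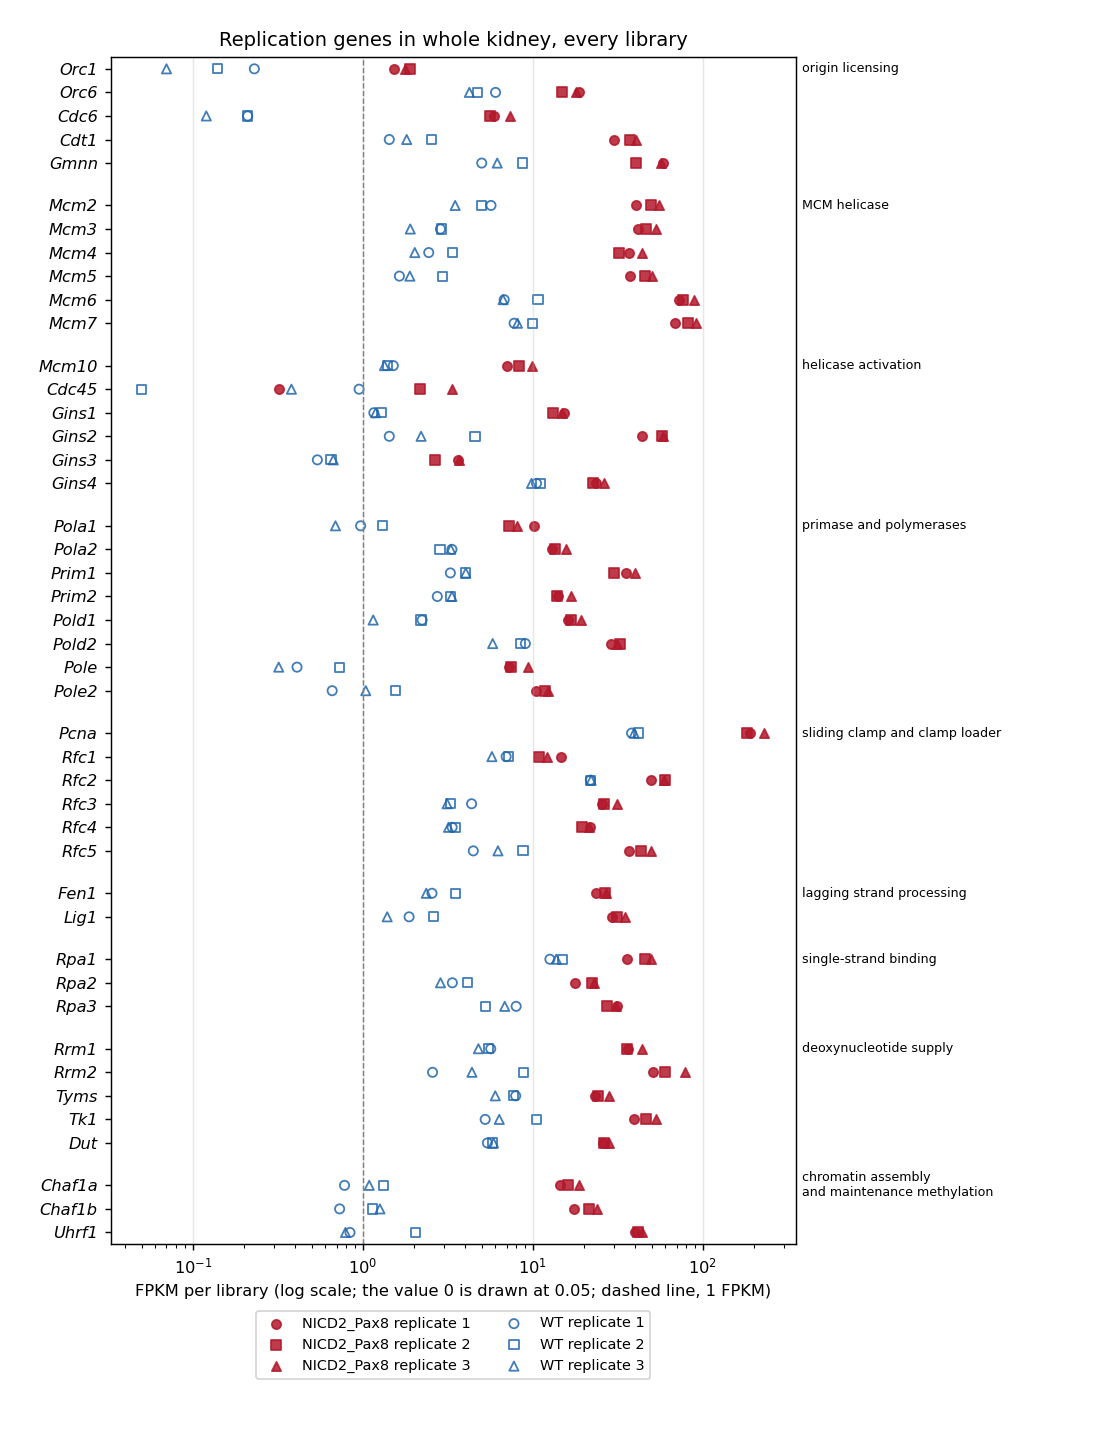
FPKM of the 44 replication genes in each of the 6 libraries, on a log axis, ordered by role; filled red symbols are NICD2_Pax8, open blue symbols WT, and the symbol shape gives the replicate number. In each row but Cdc45 the 3 red symbols lie to the right of the 3 blue ones.

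All 5 origin licensing factors rose, and 2 of them, Cdc6 and Orc1, had the lowest means of the 44 genes in WT. Cdc6 (gene 23834, chromosome 11, 98907801 to 98923942 in GRCm38), the ATPase that brings CDT1 and MCM to the origin, had 5.92, 5.61 and 7.32 FPKM in NICD2_Pax8 replicates 1 to 3, against 0.21, 0.21 and 0.12 FPKM in WT replicates 1 to 3. It was near the limit of detection in WT and plainly expressed in all 3 NICD2_Pax8 libraries, with a log2 fold change of 2.62 (SE 0.14, limma adjusted p = 4.33e-05) on the log2(FPKM + 1) scale, which understates folds of low genes. Orc1, the largest subunit of the origin recognition complex and the one whose level cycles in mammals, had 1.53, 1.89 and 1.78 FPKM in NICD2_Pax8, against 0.23, 0.14 and 0.07 FPKM in WT. Its ratio of means was 11.8-fold, yet it remained the lowest of the 44 in NICD2_Pax8. Orc6, another subunit of the complex, moved less, with a mean of 17.1 ± 2.09 FPKM in NICD2_Pax8 and 4.99 ± 0.934 FPKM in WT (SD, n = 3 each), a ratio of 3.44-fold.

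Cdt1 and its inhibitor geminin rose side by side but not in proportion. Cdt1 (gene 67177, chromosome 8, 122568015 to 122573130), the loading factor, had 29.9, 37.5 and 40.4 FPKM in NICD2_Pax8 replicates 1 to 3, against 1.43, 2.54 and 1.81 FPKM in WT. Gmnn, which encodes geminin and keeps CDT1 from loading MCM again after S phase begins, had 58.4, 40.4 and 56.5 FPKM in NICD2_Pax8, against 5, 8.65 and 6.17 FPKM in WT. Within each library, where scaling cancels, the ratio of Cdt1 to Gmnn was 0.513, 0.928 and 0.716 in NICD2_Pax8 and 0.286, 0.294 and 0.293 in WT, so the groups did not overlap. Ratios between genes within a library are given here as descriptions, without a test.

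The 6 subunits of the MCM ring rose by 9.33-fold to 20.6-fold, and their levels lay closer together in NICD2_Pax8. Mcm5 (gene 17218, chromosome 8, 75109509 to 75128439) had 37, 45.9 and 50.2 FPKM in NICD2_Pax8 replicates 1 to 3, against 1.64, 2.93 and 1.89 FPKM in WT, with a log2 fold change of 3.86 (SE 0.19, limma adjusted p = 3.54e-05). Mcm7 (gene 17220, chromosome 5, 138164583 to 138171883) was the most abundant subunit in both groups, with 68.6, 81.3 and 90.9 FPKM in NICD2_Pax8, against 7.75, 9.94 and 8.12 FPKM in WT. Mcm5, the lowest subunit in WT, had the largest fold, and Mcm7, the highest, had the smallest. The ratio of the highest to the lowest subunit mean was accordingly 2.14 in NICD2_Pax8 and 4 in WT. Mcm2, Mcm3, Mcm4 and Mcm6 rose 10.3-fold, 18.3-fold, 14.4-fold and 9.79-fold in mean FPKM. In mammalian cells the 6 proteins assemble in equal numbers, which transcript levels need not follow.

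Among the factors that turn the loaded ring into a moving helicase, the GINS subunits were uneven. Gins2 (gene 272551, chromosome 8, 120581266 to 120589075) had 43.8, 57.6 and 58.5 FPKM in NICD2_Pax8 replicates 1 to 3, against 1.43, 4.57 and 2.2 FPKM in WT. Its ratio was 19.5-fold, or 29.4-fold without WT replicate 2. Exons of Gse1 on the opposite strand overlap 67.3% of the exonic bases of Gins2. Gins4 had 23.6, 22.6 and 26 FPKM in NICD2_Pax8, against 10.5, 11.1 and 9.81 FPKM in WT, a ratio of 2.3-fold (log2 fold change 1.13, SE 0.1, limma adjusted p = 1.92e-04). Gins4 was the highest of the 4 subunits in WT and Gins2 in NICD2_Pax8. The ratio of Gins4 to Gins2 within a library was 0.538, 0.393 and 0.445 in NICD2_Pax8 and 7.34, 2.44 and 4.46 in WT. Gins1 rose 11.9-fold. Gins3 rose 5.37-fold, with 3.33 ± 0.595 FPKM in NICD2_Pax8 and 0.62 ± 0.07 FPKM in WT (SD, n = 3 each). The spread between the highest and lowest GINS subunit stayed wide in both groups, at 16 in NICD2_Pax8 and 16.9 in WT.

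Mcm10, which links the helicase to primase, rose 5.94-fold, with 7.03, 8.32 and 9.85 FPKM in NICD2_Pax8, against 1.51, 1.39 and 1.34 FPKM in WT. Cdc45 was the exception among the 44. It had 0.32, 2.17 and 3.34 FPKM in NICD2_Pax8 replicates 1 to 3, against 0.95, 0 and 0.38 FPKM in WT replicates 1 to 3. NICD2_Pax8 replicate 1 lay within the WT values, and without a filter the log2 fold change was 0.92 (SE 0.48, limma adjusted p = 0.179). The ratio of means, 4.38-fold, became 2.81-fold without NICD2_Pax8 replicate 3 and 10.2-fold without WT replicate 1, so no direction is given for it. In GENCODE M21, 5.96% of the exonic bases of Cdc45 overlap exons of Ufd1 on the opposite strand.

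**Figure D2:**
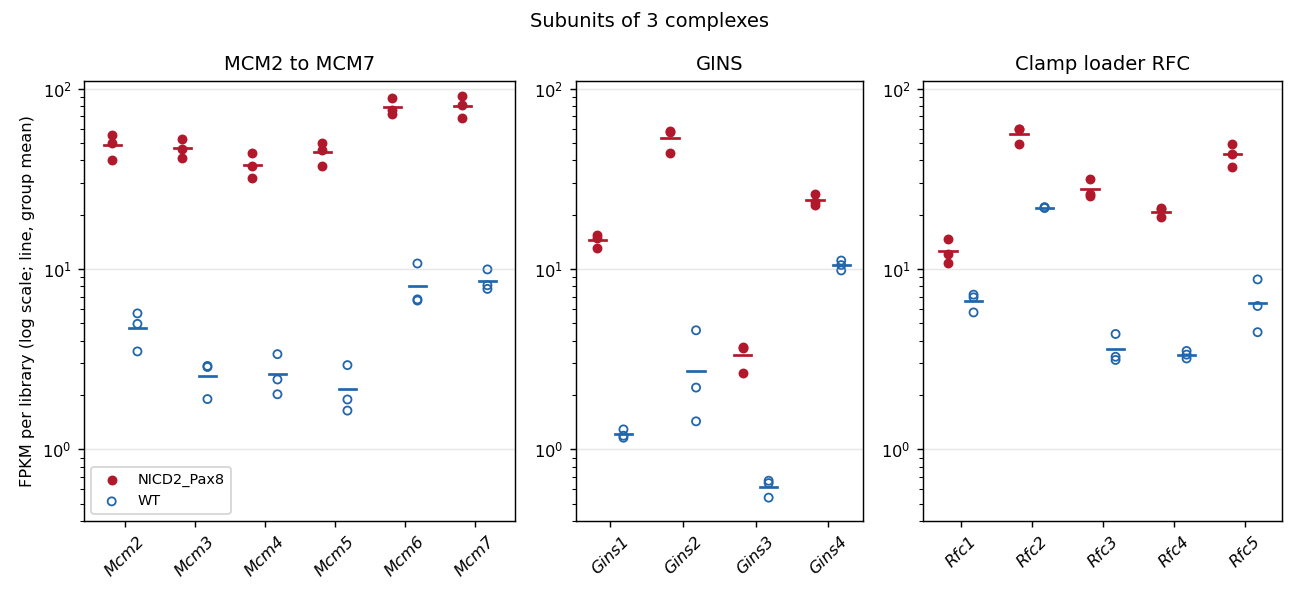
FPKM per library, on a log axis, of the subunits of the MCM ring, GINS and the clamp loader RFC; filled red points are NICD2_Pax8, open blue points WT, and lines are group means. The MCM subunits lie within 2.14-fold of each other in NICD2_Pax8 and within 4-fold in WT, while Gins4 and Rfc2, the highest subunits of their complexes in WT, differ by 2.3-fold and 2.57-fold between groups.

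Primase and the replicative polymerases rose by 3.97-fold to 16.5-fold, and in each of the 4 enzymes the catalytic subunit had the larger fold. Pole (gene 18973, chromosome 5, 110286319 to 110337468), the catalytic subunit of the leading strand polymerase epsilon, had 7.22, 7.4 and 9.41 FPKM in NICD2_Pax8 replicates 1 to 3, against 0.41, 0.73 and 0.32 FPKM in WT. Its second subunit Pole2 rose 10.6-fold. Pold1, the catalytic subunit of the lagging strand polymerase delta, rose 9.31-fold and its second subunit Pold2 3.97-fold. Pola1 and Pola2 of polymerase alpha rose 8.59-fold and 4.44-fold. The ratio of Pold2 to Pold1 was 1.79, 1.92 and 1.64 in NICD2_Pax8 libraries and 4.05, 3.84 and 5.04 in WT libraries, without overlap. For Pole2 to Pole it was 1.45, 1.58 and 1.31 in NICD2_Pax8 and 1.61, 2.12 and 3.25 in WT, where the lowest WT value lay just above the highest NICD2_Pax8 value. Prim1, the primase subunit that makes the RNA primer, had 35.1, 30.1 and 39.9 FPKM in NICD2_Pax8, against 3.27, 4.02 and 4.03 FPKM in WT, a ratio of 9.29-fold. Prim2, its regulatory partner, rose 4.79-fold.

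Pcna (gene 18538, chromosome 2, 132249286 to 132253180), the clamp, was the most abundant of the 44 in both groups. It had 188.9, 180.6 and 230.1 FPKM in NICD2_Pax8 replicates 1 to 3, against 38, 41.6 and 39.4 FPKM in WT, a ratio of 5.04-fold (log2 fold change 2.3, SE 0.12, limma adjusted p = 4.19e-05). The next gene in WT was Rfc2. The absolute increase of Pcna, 160.2 FPKM, was larger than that of any other of the 44. Pseudogenes of Pcna and Tyms are annotated in GENCODE M21, and the treatment of fragments shared with such copies is not given in the sources used here.

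The clamp loader moved in 2 tiers. Rfc3, Rfc4 and Rfc5 rose 7.71-fold, 6.21-fold and 6.65-fold in mean FPKM. Rfc1 (gene 19687, chromosome 5, 65261852 to 65338617), the large subunit specific to the PCNA loader, had 14.6, 10.9 and 12.2 FPKM in NICD2_Pax8, against 6.96, 7.2 and 5.74 FPKM in WT. This was the smallest change of the 44 (log2 fold change 0.82, SE 0.14, limma adjusted p = 0.0026; 0.51 after scaling, adjusted p = 0.014). Rfc2 had 49.3, 60 and 59.3 FPKM in NICD2_Pax8, against 21.8, 21.8 and 22 FPKM in WT, a ratio of 2.57-fold. The small subunits RFC2 to RFC5 also serve other clamp loaders that work in checkpoint signalling and cohesion. The ratio of Rfc1 to Rfc4 was 0.676, 0.561 and 0.569 in NICD2_Pax8 libraries and 2.08, 2.05 and 1.8 in WT libraries.

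Lagging strand and single-strand binding genes also rose. Lig1 (gene 16881, chromosome 7, 13277313 to 13311427), the ligase that seals Okazaki fragments, had 29, 31.4 and 35 FPKM in NICD2_Pax8 replicates 1 to 3, against 1.87, 2.59 and 1.39 FPKM in WT, a ratio of 16.3-fold. Fen1, the flap nuclease that removes the primer, rose 9.11-fold, but 84.2% of its exonic bases overlap exons of Tmem258 or Gm10143 on the other strand, and the labels do not state that the kit keeps strand. Rpa1, Rpa2 and Rpa3, the trimer that coats single-stranded DNA in replication and repair, rose 3.18-fold, 6.08-fold and 4.47-fold. Exon overlap with a gene on the other strand also covers 67.3% of Gins2, with Gse1, and 52.5% of Chaf1a, with Ubxn6. It is not known whether fragments of these partners were separated from them.

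Genes of deoxynucleotide supply rose by 3.49-fold to 12-fold. Rrm2 (gene 20135, chromosome 12, 24708254 to 24714146), the S phase subunit of ribonucleotide reductase, had 51.1, 60 and 78.3 FPKM in NICD2_Pax8 replicates 1 to 3, against 2.57, 8.78 and 4.38 FPKM in WT. Its ratio was 12-fold, or 18.2-fold without WT replicate 2. Rrm1, the large subunit, rose 7.29-fold. The ratio of Rrm2 to Rrm1 within a library was 1.4, 1.67 and 1.79 in NICD2_Pax8. In WT it was 0.455, 1.6 and 0.916, so the groups overlapped. Rrm2b, the alternative small subunit that serves cells outside S phase and responds to p53, is not one of the 44 and went the other way, with 5.54, 4.06 and 3.44 FPKM in NICD2_Pax8, against 7.56, 9.02 and 6.16 FPKM in WT (log2 fold change -0.69, SE 0.19, limma adjusted p = 0.0183). That call was lost at an adjusted p of 0.01 and when any one of WT replicate 2 or NICD2_Pax8 replicates 2 or 3 was left out. The ratio of Rrm2 to Rrm2b within a library was 9.23, 14.8 and 22.8 in NICD2_Pax8 and 0.34, 0.973 and 0.711 in WT.

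Tk1, the cytosolic thymidine kinase of dividing cells, had 39.1, 46.1 and 53.2 FPKM in NICD2_Pax8, against 5.24, 10.5 and 6.34 FPKM in WT, a ratio of 6.28-fold. Its mitochondrial counterpart Tk2, named here for contrast after its values were seen, had 10.7, 10.1 and 9.85 FPKM in NICD2_Pax8, against 16.5, 8.28 and 8.25 FPKM in WT (log2 fold change -0.03, limma adjusted p = 0.919). Without WT replicate 1, the highest of these libraries, its log2 fold change was 0.27 and it was called higher (limma adjusted p = 0.0441). Tyms, which makes dTMP, rose 3.49-fold and Dut, which removes dUTP, 4.69-fold. Dut was the most even gene of this set, with 25.7, 26.2 and 28.2 FPKM in NICD2_Pax8, against 5.4, 5.81 and 5.86 FPKM in WT.

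Chromatin assembly and maintenance methylation genes had the highest median log2 fold change of the 9 roles, 3.42 over 3 genes. All 3 passed the filter through the NICD2_Pax8 group, and the next role, the MCM helicase, had a median of 3.29. Uhrf1 (gene 18140, chromosome 17, 56303337 to 56323486), which reads hemimethylated DNA behind the fork and recruits DNMT1, had 40.1, 41.6 and 44 FPKM in NICD2_Pax8 replicates 1 to 3, against 0.84, 2.05 and 0.79 FPKM in WT. Its log2 fold change of 4.31 (SE 0.21, limma adjusted p = 3.76e-05) was the largest of the tested 43, and its ratio of 34.2-fold became 51.4-fold without WT replicate 2. Chaf1a and Chaf1b, 2 subunits of the CAF-1 complex that places new histones behind the fork, rose 15.4-fold and 20.1-fold. Chaf1b had 17.4, 21.5 and 23.9 FPKM in NICD2_Pax8, against 0.73, 1.14 and 1.26 FPKM in WT.

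**Figure D3:**
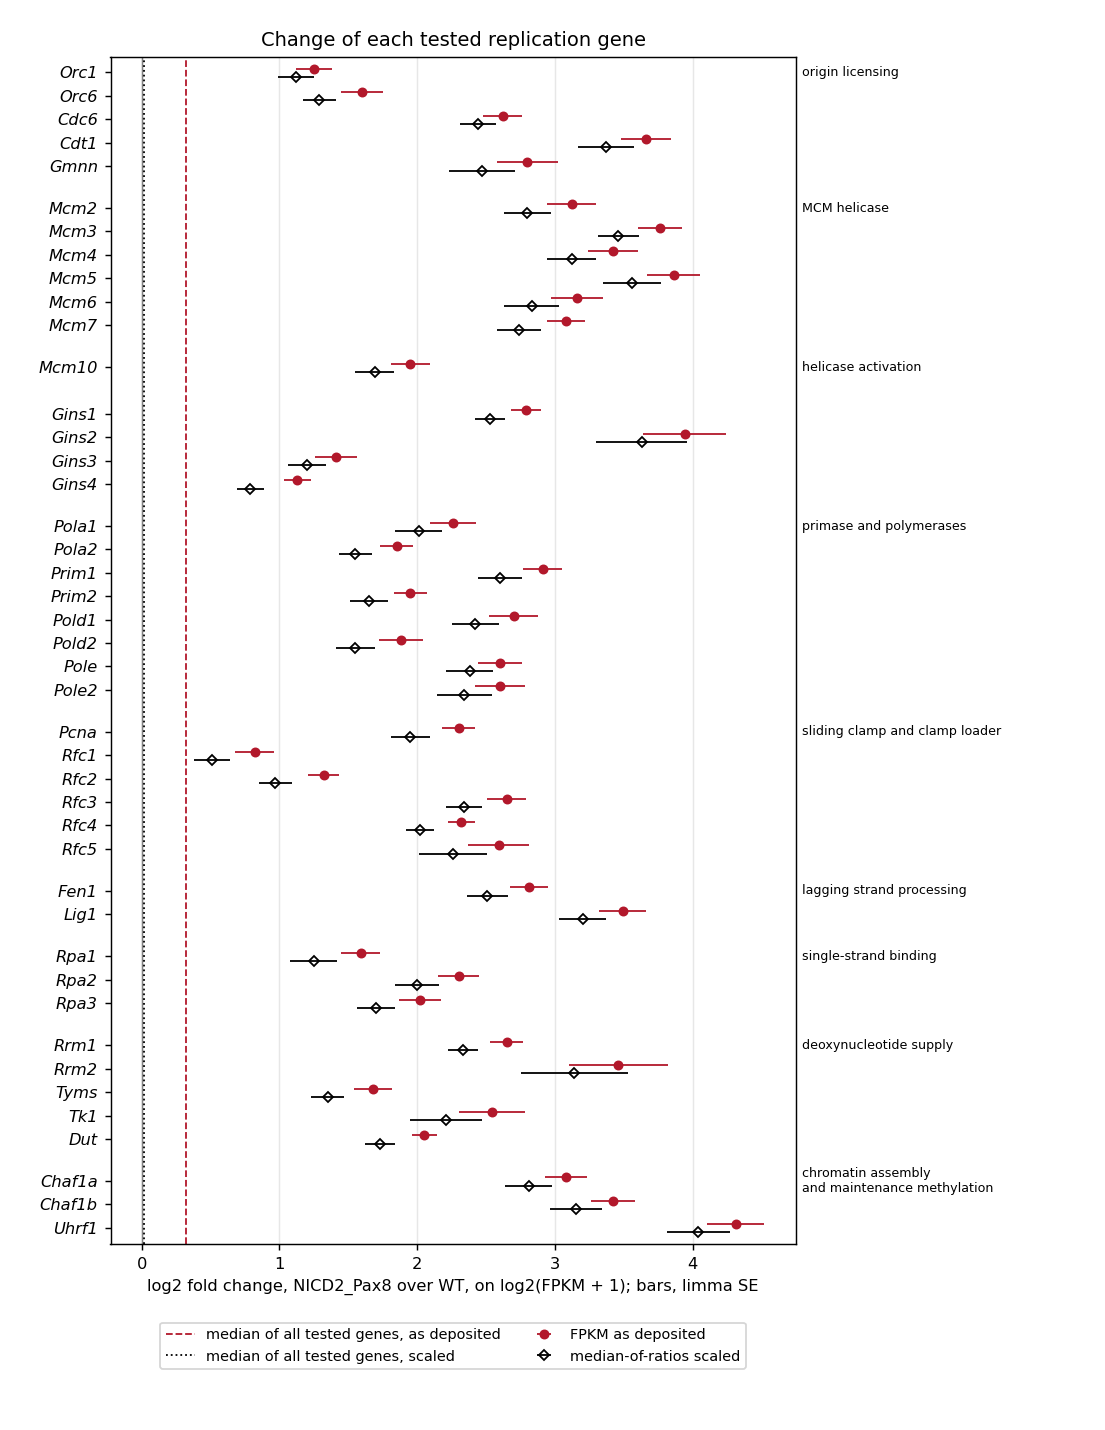
Log2 fold change of NICD2_Pax8 over WT on log2(FPKM + 1), with limma standard errors, for the 43 tested replication genes ordered by role; filled red circles use FPKM as deposited and open black diamonds median-of-ratios scaled values, and vertical lines mark the medians of all tested genes, 0.32 and 0.02. The points run from 0.82 for Rfc1 to 4.31 for Uhrf1 as deposited, and scaled points lie lower but right of the scaled median.

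On the log2(FPKM + 1) scale, which understates folds of low genes, the size of the change went with the level in WT to a limited degree. Across the 43 tested genes the Spearman correlation between log2 fold change and mean WT FPKM was -0.29, and across all tested genes it was -0.32; genes share libraries and the same WT mean enters both axes, so these are descriptions. The median of the 44 means was 27.2 FPKM in NICD2_Pax8 and 3.25 FPKM in WT. In NICD2_Pax8, 37 of the 44 had a mean of at least 10 FPKM, against 4 in WT, and 0 had a mean under 1 FPKM, against 6 in WT. Pcna, Rfc2, Rpa1 and Gins4 were the 4 at 10 FPKM or more in WT. Their ratios of mean FPKM ran from 2.3-fold for Gins4 to 5.04-fold for Pcna. For the 6 under 1 FPKM in WT the ratios ran from 4.38-fold for Cdc45 to 34.9-fold for Cdc6.

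**Figure D4:**
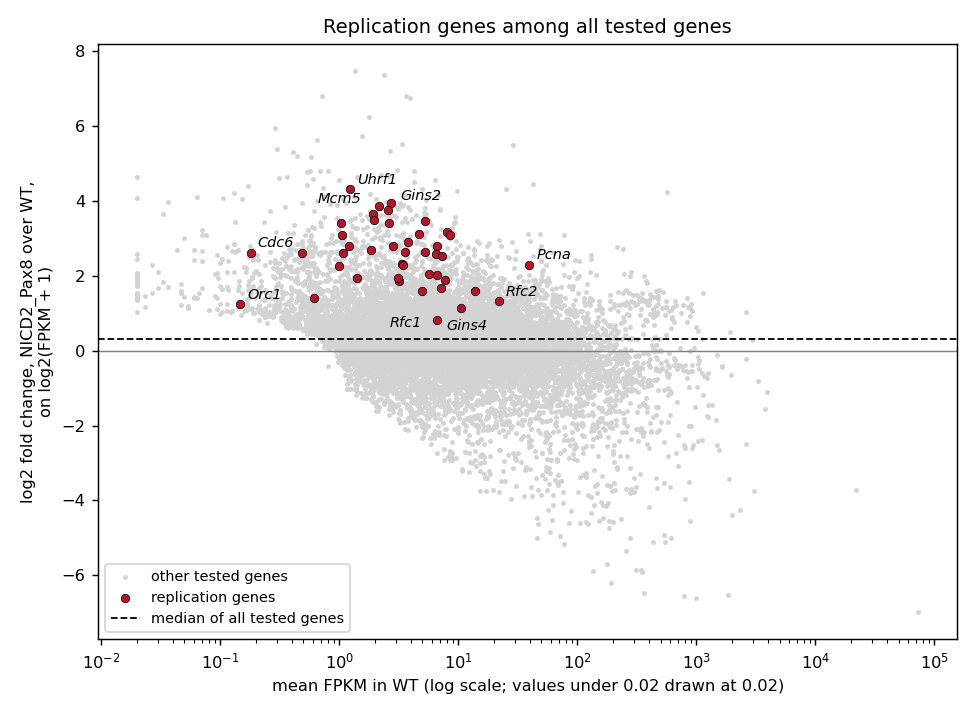
Log2 fold change of NICD2_Pax8 over WT against mean WT FPKM (log axis) for all 13500 tested genes in grey and the 43 replication genes in red, with the median of all tested genes as a dashed line. The red points lie above that line, mostly between 1 and 10 FPKM in WT, and the filter on low values with the floor at 0 FPKM leaves the lower left corner empty.

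Within each group 1 library tended to be high for these genes. NICD2_Pax8 replicate 3 was the highest of its group for 34 of the 44 and the lowest for 0, while 27.2% of all tested genes were highest there. After scaling it was highest for 36. The summed level of the 44 was 1361, 1436 and 1660 FPKM in NICD2_Pax8 replicates 1 to 3 and 215.2, 253.7 and 209.1 FPKM in WT replicates 1 to 3. WT replicate 2 was the highest of its group for 25 of the 44 as deposited and for 29 after scaling, where 27.9% and 28.5% of all tested genes were highest. Summed mitotic markers were 301.4, 294.4 and 352.2 FPKM in NICD2_Pax8 and 11.2, 35.3 and 12.3 FPKM in WT, so the same 2 libraries were the highest for them. Gins2, Rrm2 and Uhrf1 are the tested genes among the 44 whose ratio moved by more than 1.5 times when 1 library was left out, in each case WT replicate 2. The median coefficient of variation over the 44 was 13.2% in NICD2_Pax8 and 22.2% in WT, and over all tested genes 11.4% in NICD2_Pax8 and 14.2% in WT.

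The promoter sequences of these genes were then examined, because the genes moved together and E2F sites are known regulators of them. RefSeq promoters on GRCm38.p6, from 250 bases before to 50 bases after a transcription start, were at hand for 36 of the 44, 42 promoters in all. An E2F heptamer was searched on both strands in 4 spellings, namely TTCGCGC and TTGGCGC as well as TTCCCGC and TTGCCGC, with overlapping matches on the 2 strands counted separately. It occurred in 27 of the 42 promoters (64.3%), in 9.57% of all 32851 promoters in the table and in 16% of the 13188 promoters of tested genes. Median GC content was 60.7% in the replication promoters, 52.7% over the table and 60.3% for tested genes. The CCAAT box (CCAAT) occurred in 59.5% of the replication promoters and in 37.3% of those of tested genes, the NRF1 core GCATGCG in 11.9% and 6%, the core TGGGAA of RBPJ, the DNA-binding partner of the Notch intracellular domain, in 38.1% and 23.4%, and the CHR element TTTGAA in 11.9% and 12.3%. A match is a run of letters and was not shown to be bound. Of the tested genes with a promoter, the 24 with an E2F match had a median log2 fold change of 2.76 (0.82 to 4.31) and the 11 without one 1.95 (1.59 to 3.12), with wide overlap.

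For the MCM genes with a match, the site nearest to the start is shown with 7 bases on each side, on the strand of the gene, with the heptamer in capitals. The likeness of the capitals was fixed by the search and says nothing of the complex. The sites of Mcm3, Mcm5, Mcm6 and Mcm7 read on the opposite strand for the first 3 genes and on the gene strand for Mcm7. Their first capital base lies 19 bases after the start in Mcm3, at -149 in Mcm5, at 24 in Mcm6 and at 17 in Mcm7, counting the start as 0. The windows are chr1:20820280-20820300 (minus strand), chr8:75109353-75109373 (plus strand), chr1:128359668-128359688 (minus strand) and chr5:138171853-138171873 (minus strand) in GRCm38.
Mcm3: ttccgtgGCGGGAAaacttgg
Mcm5: aactttcGCGCCAAaacgtcc
Mcm6: gaggcgcGCGCGAAgtggcag
Mcm7: acgacgtTTCGCGCcaatttc
In all, the promoters of Mcm3, Mcm5, Mcm6 and Mcm7 held 3, 3, 5 and 3 matches, overlapping ones included, and that of Mcm2 held 0. No promoter was at hand for Mcm4.

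Whole promoters are shown for Uhrf1, which had the largest change on the log2(FPKM + 1) scale, for the first MCM gene, Mcm2, and for Rfc1, which had the smallest, to set the letters beside the response. The regions are chr17:56303087-56303386 on the plus strand for Uhrf1, chr6:88898731-88899030 on the minus strand for Mcm2 and chr5:65335590-65335889 on the minus strand for Rfc1. Sequences run 5′ to 3′ on the strand of the gene, and capitals mark E2F heptamers, which overlap in Rfc1.
Uhrf1: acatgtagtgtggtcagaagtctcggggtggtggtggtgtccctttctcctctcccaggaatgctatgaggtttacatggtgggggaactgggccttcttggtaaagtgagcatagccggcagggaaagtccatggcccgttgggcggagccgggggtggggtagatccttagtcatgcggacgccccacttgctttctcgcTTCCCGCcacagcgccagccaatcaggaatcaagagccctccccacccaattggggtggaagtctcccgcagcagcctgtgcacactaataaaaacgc
Mcm2: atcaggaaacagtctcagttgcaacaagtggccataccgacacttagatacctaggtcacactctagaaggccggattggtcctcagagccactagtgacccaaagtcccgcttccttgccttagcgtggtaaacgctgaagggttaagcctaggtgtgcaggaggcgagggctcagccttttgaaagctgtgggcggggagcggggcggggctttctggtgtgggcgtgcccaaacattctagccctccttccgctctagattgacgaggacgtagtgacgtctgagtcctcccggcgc
Rfc1: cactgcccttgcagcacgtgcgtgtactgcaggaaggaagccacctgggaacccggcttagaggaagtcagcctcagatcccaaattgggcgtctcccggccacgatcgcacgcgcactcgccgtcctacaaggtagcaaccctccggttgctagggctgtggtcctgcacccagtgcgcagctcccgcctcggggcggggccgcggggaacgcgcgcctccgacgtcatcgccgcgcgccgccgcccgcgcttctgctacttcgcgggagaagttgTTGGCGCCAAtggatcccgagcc
Uhrf1, with 1 match, rose 34.2-fold, Mcm2, with 0, rose 10.3-fold, and Rfc1, with 2 that overlap, rose 1.89-fold. With 3 promoters, of which Uhrf1 and Rfc1 were chosen by the size of their change, the relation of matches to change was not tested. The RefSeq start used for Rfc1 lies inside the gene span that the deposited table gives.

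A further 96 genes in 7 related lists hold other replication factors, the E2F network, repair polymerases and ligases, and mitotic markers. Of these, 78 were called higher and 3 lower, against 45.1% and 16.2% of all tested genes. After scaling 68 were higher and 5 lower, against 28.7% and 25.7%. Without WT replicate 1 the counts were 81 and 1, against 50.4% and 15.6%. Some of the 96 passed the filter only through the NICD2_Pax8 libraries. Ticrr, Exo1, E2f8 and Polq, for example, reached 1 FPKM in 0 WT libraries. The list counts and medians include such genes. The median log2 fold changes of the lists were 1.45 for 14 origin factors, 1.47 for 20 fork and elongation factors, 0.84 for 11 deoxynucleotide enzymes, 1.69 for 12 chromatin factors, 1.15 for 18 genes of the E2F network, 0.44 for 12 repair polymerases and ligases and 3.59 for 9 mitotic markers, against 2.6 for the replication genes and 0.32 for all tested genes.

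From each list the gene with the highest log2 fold change on log2(FPKM + 1) is named below. Counts of calls per list stand beside the shares of all tested genes just given for each setting. Other genes, lower in WT, can have larger ratios of mean FPKM. Of the 14 origin factors, 12 were higher and 0 lower. Dbf4, the activator of the CDC7 kinase that fires origins, rose 7.33-fold, with 16.4, 10.4 and 12.4 FPKM in NICD2_Pax8, against 1.33, 2.41 and 1.61 FPKM in WT. Ticrr, named after its values were seen, rose 38.8-fold from a WT mean of 0.0933 FPKM (log2 fold change 2.08). Orc4, a subunit of the origin recognition complex, had 12.2, 7.71 and 9.33 FPKM in NICD2_Pax8, against 9.57, 8.6 and 8.63 FPKM in WT (limma adjusted p = 0.647), and the sign of its log2 fold change, 0.09, turned to -0.23 after scaling. Of the 20 fork and elongation factors, 18 were higher and 0 lower (14 and 0 after scaling). Pclaf, which binds PCNA, rose 26.5-fold, or 40.2-fold without WT replicate 2. Exo1, named after its values were seen, rose 48.6-fold from a WT mean of 0.127 FPKM (log2 fold change 2.67). Top1, the topoisomerase that also serves transcription, had 48.1, 26.3 and 27.9 FPKM in NICD2_Pax8, against 37, 36.2 and 33 FPKM in WT (limma adjusted p = 0.706).

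In deoxynucleotide supply beyond the 44 genes, 7 of 11 were higher and 1, Rrm2b, lower. After scaling 6 were higher, and without WT replicate 1, 8 were, with Tk2 added. Dck, the deoxycytidine kinase of the salvage pathway, rose 5.99-fold, with 13.3, 14.2 and 19 FPKM in NICD2_Pax8, against 2.41, 2.99 and 2.36 FPKM in WT. Of the 12 chromatin factors, 12 were higher (11 after scaling). The histone chaperone Asf1b rose 19.4-fold, with 21.6, 22.4 and 28.6 FPKM in NICD2_Pax8, against 0.93, 1.9 and 0.91 FPKM in WT, while its paralog Asf1a rose 1.61-fold (limma adjusted p = 0.0102; 0.0932 after scaling).

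Of the 18 genes of the E2F network 13 were higher and 0 lower, and after scaling 12 were higher and 2 lower. Without WT replicate 1, 14 were higher, with E2f6, a repressor of the family also named after its values were seen, added (limma adjusted p = 0.0653 with that library and 0.00857 without it). Foxm1, a transcription factor of the G2 and mitotic programme, rose 15.3-fold (24.2-fold without WT replicate 2), with 19, 21.4 and 23.6 FPKM in NICD2_Pax8, against 0.79, 2.43 and 0.97 FPKM in WT. Rbl2, the pocket protein p130 that represses these genes in quiescent cells, had 9.28, 12.7 and 13.1 FPKM in NICD2_Pax8, against 14.3, 15.8 and 15.3 FPKM in WT. Its groups did not overlap, its log2 fold change of -0.36 missed the threshold (limma adjusted p = 0.0663), and after scaling it was -0.69 (adjusted p = 0.0122). E2f1, an activator, and E2f8, a repressor induced in S phase, both named after their values were seen, rose 7.26-fold and 24.6-fold.

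Repair polymerases and ligases were nearer to the background, with 7 of 12 higher and 2 lower (4 and 2 after scaling). Without WT replicate 1, 8 were higher and 0 lower. The 2 lower genes were Lig4 and Rev1, a translesion factor named after its values were seen, and Rev1 (log2 fold change -0.3, limma adjusted p = 0.049) had an adjusted p of 0.0734 without that library. Polh, a translesion polymerase, had the highest log2 fold change of this list, 1.23, and rose 2.92-fold. Polq, named after its values were seen, had a log2 fold change of 1.1. It rose 9.14-fold from a WT mean of 0.163 FPKM, or 14.2-fold without WT replicate 2. Lig4, the ligase of end joining, had 1.9, 1.23 and 1.04 FPKM in NICD2_Pax8, against 2.79, 1.96 and 2.28 FPKM in WT (limma adjusted p = 0.0479), a call lost with a pseudocount of 0.1, without a filter and when any one of 5 libraries was left out, the exception being NICD2_Pax8 replicate 1. The 9 mitotic markers were all higher. Ccnb2, a mitotic cyclin, rose 16.2-fold (29-fold without WT replicate 2), with 48.7, 61.3 and 75.2 FPKM in NICD2_Pax8, against 2.14, 7.18 and 2.12 FPKM in WT. Bub1, the spindle checkpoint kinase, had the smallest log2 fold change of this list, 2.58.

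**Figure D5:**
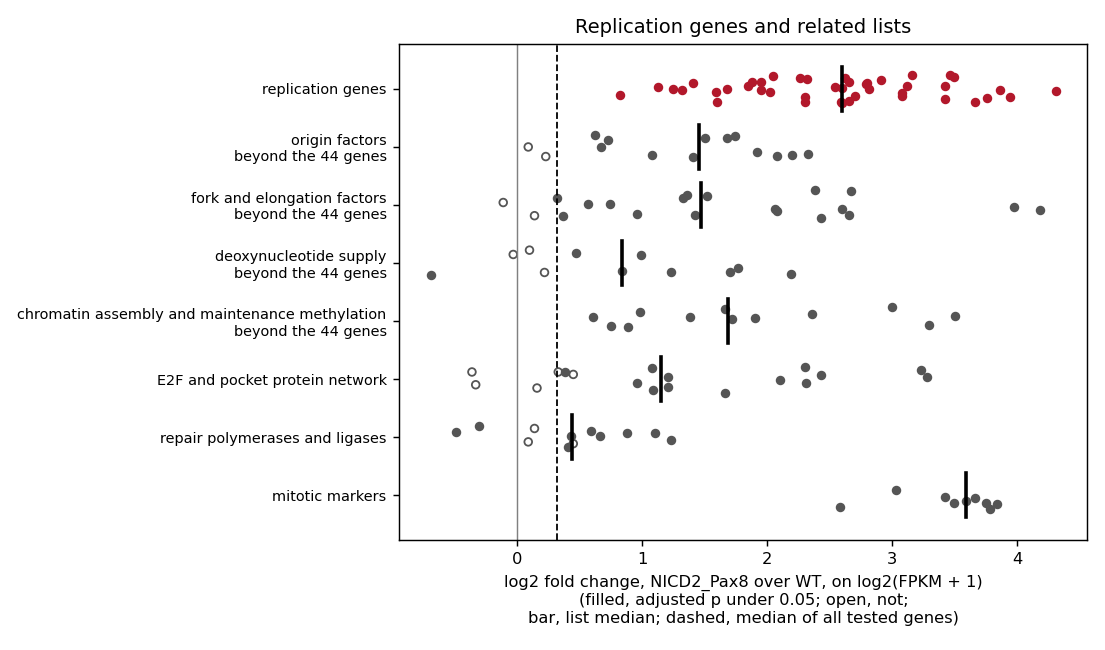
Log2 fold change of NICD2_Pax8 over WT on log2(FPKM + 1) for the replication genes in red and 7 related lists in grey; filled points passed an adjusted p of 0.05, bars are list medians and the dashed line is the median of all tested genes. Medians are 2.6 for the replication genes, 3.59 for mitotic markers and 0.44 for repair polymerases and ligases.

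Markers of several cell types moved with the groups. Counts of calls below stand beside 45.1% of all tested genes called higher and 16.2% lower (28.7% and 25.7% after scaling). Summed over 9 macrophage genes the level was 572.8, 656 and 561.3 FPKM in NICD2_Pax8 and 341.8, 157.3 and 121.4 FPKM in WT, with 7 of 9 called higher (7 after scaling) and Lyz2 the most abundant. Without WT replicate 1, 8 of 9 were called higher, with Adgre1, likewise named after its values were seen, added (limma adjusted p = 0.389 with that library and 0.0036 without it), and the ratio for Lyz2 was 7.63-fold in place of 3.39-fold. The 8 T and NK cell genes with values summed to 18.4, 21.9 and 26 FPKM in NICD2_Pax8 and 11.5, 7.43 and 7.14 FPKM in WT, with 3 of 5 tested genes called higher (2 after scaling). Cd8a was the most abundant of them, at 6.93 to 9.19 FPKM in NICD2_Pax8 and 0.8 to 1.09 FPKM in WT. The 6 B and plasma cell genes, with Mzb1 the most abundant, summed to 3.94 to 5.33 FPKM in NICD2_Pax8 and 4.53 to 5.68 FPKM in WT, and the 6 neutrophil genes, with S100a9 the most abundant, to 5.48 to 13.1 FPKM in NICD2_Pax8 and 2.09 to 3.44 FPKM in WT. Of the neutrophil genes, Ly6g, Mpo and Elane were each listed at 0 in at least 1 library. The 6 erythroid genes, with Hba-a1 the most abundant, summed to 41.4 to 72.4 FPKM in NICD2_Pax8 and 230.7 to 944.9 FPKM in WT. Endothelial genes, with Emcn the most abundant, summed to 51.8 to 68.6 FPKM in NICD2_Pax8 and 116.4 to 148 FPKM in WT. Of these 6 genes, 5 were called lower (6 after scaling). Genes of fibroblasts and pericytes, with Col3a1 the most abundant, summed to 231.4 to 255.6 FPKM in NICD2_Pax8 and 128.3 to 240 FPKM in WT. Of these 6 genes, 3 were called higher and 2 lower, as deposited and after scaling. The thick ascending limb list, led by Umod, summed to 1024 to 1685 FPKM in NICD2_Pax8 and 1065 to 2219 FPKM in WT. Although these sums overlapped, 5 of its 6 genes were called lower, as deposited and after scaling, with a list median log2 fold change of -1.4. The adipocyte list, led by Fabp4, summed to 49.4 to 220.1 FPKM in NICD2_Pax8 and 131.5 to 2755 FPKM in WT. Proximal tubule genes, led by Kap, fell in 10 of 10 cases. The part of these shifts in cell content in the rise of the replication genes was not tested, and which cells held the replication transcripts was not measured.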

How the data were processed

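The authors deposited 1 table of 23873 genes with FPKM per library, FPKM means per group, and log2 fold changes and q-values that per the file headers came from DESeq2. Per the labels' protocols RNA was extracted with Trizol and libraries were made with an Illumina TruSeq kit. Bowtie 0.12.2 and the build mm8 are named, with no role, per the submitters' processing notes. The counting tool is not given in the sources used here. Of 17966 gene identifiers with values matched to RefSeq on GRCm38.p6, 86.6% had the same start and end (38 of the 44 replication genes), so positions in the file are read as GRCm38.

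Rows without values (4370) were dropped, which left 19503. Genes with at least 1 FPKM in at least 3 libraries, 13500, were tested with limma 3.58.1 in R 4.3.3 on log2(FPKM + 1) with a mean-variance trend, two-sided, with group as the only term. Benjamini-Hochberg adjusted p under 0.05 over all tested genes was called. The script was also run on simulated data in which few genes changed, all of them upward. That setting is simpler than these libraries, so the run is not support for the calls. Folds are ratios of mean FPKM and SD is over 3 libraries. Intervals from counts were not computed, since the file gives no counts. The depth estimate took, for single-transcript genes, the step at which low FPKM times length fell nearest to whole numbers. With it, 68.1% to 74.1% of values lay within 0.15 of a whole number. There were 0 further library columns.

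The members and lists were chosen with earlier results of these data known. The text names all 44 genes, the genes with the highest and the lowest log2 fold change of each related list, the most abundant marker of each cell type, and promoters chosen by size of change. Trac, 1 listed T cell gene, was not found in the table. Single values of some marker genes are not reported here. Alternatives were other pseudocounts, filters, scalings and thresholds, a replicate block and each library left out.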

Additional observations from a re-analysis of the deposited data

How the results depend on the processing

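The count of replication genes called higher was 43 in the main analysis and stayed within 1.5 times of it under each alternative: 43 with pseudocounts of 0.1 and 5, no filter, median-of-ratios scaling, upper quartile scaling, quantile normalization, an adjusted p of 0.01 and the authors' deposited q-value, 42 when a log2 fold change of 1 or more was also required, which Rfc1 missed, and 39 to 43 with 1 library left out. The count of 39 came with each NICD2_Pax8 library left out, when 39 genes met the filter and Orc1, Cdc6, Gins3 and Pole did not. The count called lower was 0 throughout.

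Replicate numbers did not pair the libraries: correlations of deviations between same-numbered libraries were 0.0951, -0.0498 and 0.0056. With the replicate block 43 replication genes were higher. The count of all genes higher was 5818 with it, and that of all genes lower 2164.

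Genes of the 7 related lists called lower numbered 3, and 1 with a pseudocount of 0.1 or no filter, 5 with median-of-ratios, upper quartile or quantile scaling, with the replicate block plus scaling, with the authors' q-value and with no filter plus scaling (chosen after seeing the data), 6 with scaling without WT replicate 1, 0 at an adjusted p of 0.01 or a log2 fold change of at least 1, and 0 to 4 with 1 library left out. The main counts were 6095 for all genes higher and 2190 for all genes lower. These became 3873 and 3473 with median-of-ratios scaling, 3866 and 3558 with quantile normalization, 3606 and 3381 with the replicate block plus scaling, 4045 and 3693 with no filter plus scaling, and 2427 and 1009 with a log2 fold change of at least 1. Lower genes numbered 3600 with scaling without WT replicate 1 and 4184 by the authors' q-value. The Orc4 log2 fold change, 0.09, reversed to -0.23 with median-of-ratios scaling (alone, with the block or without a filter) and by the authors' values, -0.17 with upper quartile scaling, -0.29 with quantile normalization, -0.24 with scaling without WT replicate 1 and ran from -0.07 to 0.23 with 1 library left out. The Top1 log2 fold change, -0.11, ran from -0.37 (called) without NICD2_Pax8 replicate 1 to 0.05 without replicate 2, and was 0.01 without replicate 3. The cause of these moves was not tested. Low values such as those of Cdc45 limit what can be said of that gene.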
